A study of Oryza sativa with 46 samples.

Results

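The 5 genes described here encode tonoplast intrinsic proteins (TIPs) of rice. They were chosen by locus, as every non-control probe of the array whose name begins with 1 of the 5 loci. All 5 loci had a probe, and together they had 21 of the 42477 probes on the array, each printed as 1 spot. TIP1-1 (Os03g0146100, on chromosome 3) had 6 probes, TIP1-2 (Os01g0975900, chromosome 1) had 3, TIP2-1 (Os02g0658100, chromosome 2) had 2, TIP2-2 (Os06g0336200, chromosome 6) had 8 and TIP4-1 (Os05g0231700, chromosome 5) had 2. The names are spelled as in NCBI RefSeq, where each of the 5 names belonged to 1 gene on the chromosome that the locus name gives.

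TIPs are aquaporins of the membrane that encloses the vacuole, the compartment that fills most of a mature plant cell. They let water pass between vacuole and cytoplasm, and several members also pass small solutes such as urea, ammonia or hydrogen peroxide. The TIP1 members are the gamma-TIPs, common in growing and vegetative tissue, and the TIP2 members are the delta-TIPs. In rice, TIP2-1 is known as a root gene. Salt stress draws water out of cells and loads vacuoles with sodium, which is why vacuolar water channels are often followed in salt experiments.

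Whole seedlings of 8 genotypes were compared without salt and under 120 mM NaCl. Pokkali (an indica landrace, tolerant), PSBRc50 and IR58 (indica varieties, moderately tolerant) and BRRIdhan 29 (an indica high yielding variety, susceptible) stood beside the japonica cultivars Banikat (moderately tolerant) and Nipponbare (susceptible) and the wild species Oryza latifolia and Oryza rufipogon (both susceptible). These classes are those of the methods, while the sample labels give Oryza sativa as organism for all arrays. Seedlings were grown in flasks of nutrient medium, the stressed ones received salt at reduced strength 13 days after emergence and at full strength 24 h later, and RNA of root and shoot together was taken at 16 days, after 48 h of salt. Each array held the RNA of 1 seedling, so a replicate is a plant. Per the methods, seedlings heavier than the recommended starting amount were represented by sections of their root, stem and leaves. The RNA was hybridised in 1 colour to Agilent rice oligo arrays. There were 46 arrays, 23 at each treatment, in 14 groups of 3 and, for IR58 at 0 mM and BRRIdhan 29 at 120 mM, 2 groups of 2. The arrays lay on 12 slides scanned on 6 days, and a slide held both treatments but at most 2 genotypes. All indica arrays were on slides 1 to 6, scanned on days 1, 4 and 6. All japonica and wild arrays were on slides 7 to 12, scanned on days 2, 3 and 5. Differences in level between the indica genotypes and the others therefore cannot be told apart from those of slide and scan day. In whole seedlings, less root in a sample and less RNA per root cell cannot be told apart.

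Before the results, 8 arrays have to be set apart. Over all probes, 38 arrays correlated best with the other arrays of their labelled genotype (r of deviations from the probe medians 0.229 to 0.934). The remaining 8, called unlike arrays below, had r from −0.0895 to 0.0969 with their labelled genotype and 0.417 to 0.843 with another. They were labelled PSBRc50 120 mM replicate 3, IR58 0 mM replicate 2, BRRIdhan 29 0 mM replicate 2, Banikat replicate 3 at both treatments, Nipponbare replicate 3 at both treatments, and O. latifolia 120 mM replicate 2. The fit of 46 arrays used every array as labelled, and a fit of the 38 arrays without the unlike ones is given beside it. In that fit IR58 at 0 mM has 1 array, which is assumed to vary like the other groups.

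All values are log2 of the signal after quantile normalization between arrays. A salt effect is the value at 120 mM minus that at 0 mM, so that −1 is a signal of 0.5 times, and adjusted p-values are from limma with Benjamini-Hochberg adjustment over all probes, with a threshold of 0.05. Signals of different probes are not compared with each other, since probes differ in how brightly they bind. No TIP spot was saturated or left out as an outlier. Of the 21 probes, 16 were well above background on all 46 arrays. AK104270 of TIP2-2 was so on 45 arrays, AB114829 and AK111768 of TIP1-2 on 41 each, AK073531 of TIP2-2 on 36 and AK072531 of TIP4-1 on 34.

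No TIP probe passed the test for a mean salt effect, while 9 of the 21, all of TIP1-2 and TIP2-2, differed between the genotypes at 0 mM, where 61.9% of all probes did. The largest mean salt effects were those of TIP2-1 (−1.35 and −1.33, signals of 0.391 and 0.398 times) and of TIP1-2 probe AK111747 (−0.95, 0.519 times), all lower under salt. The probes of TIP1-1 were lower by 0.16 to 0.53, and those of TIP2-2 and TIP4-1 lay within 0.20 of 0. None of the 9 calls was made without O. latifolia, where some TIP1-2 and TIP2-2 probes were dim and other probes of the same genes were bright. Detection was lower on this species' arrays as a whole, with 20914 to 23526 probes well above background on the 5 that resembled their label, against 26898 to 36693 on the arrays of other genotypes. The part of this in the dim TIP probes was not tested.

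**Figure D1:**
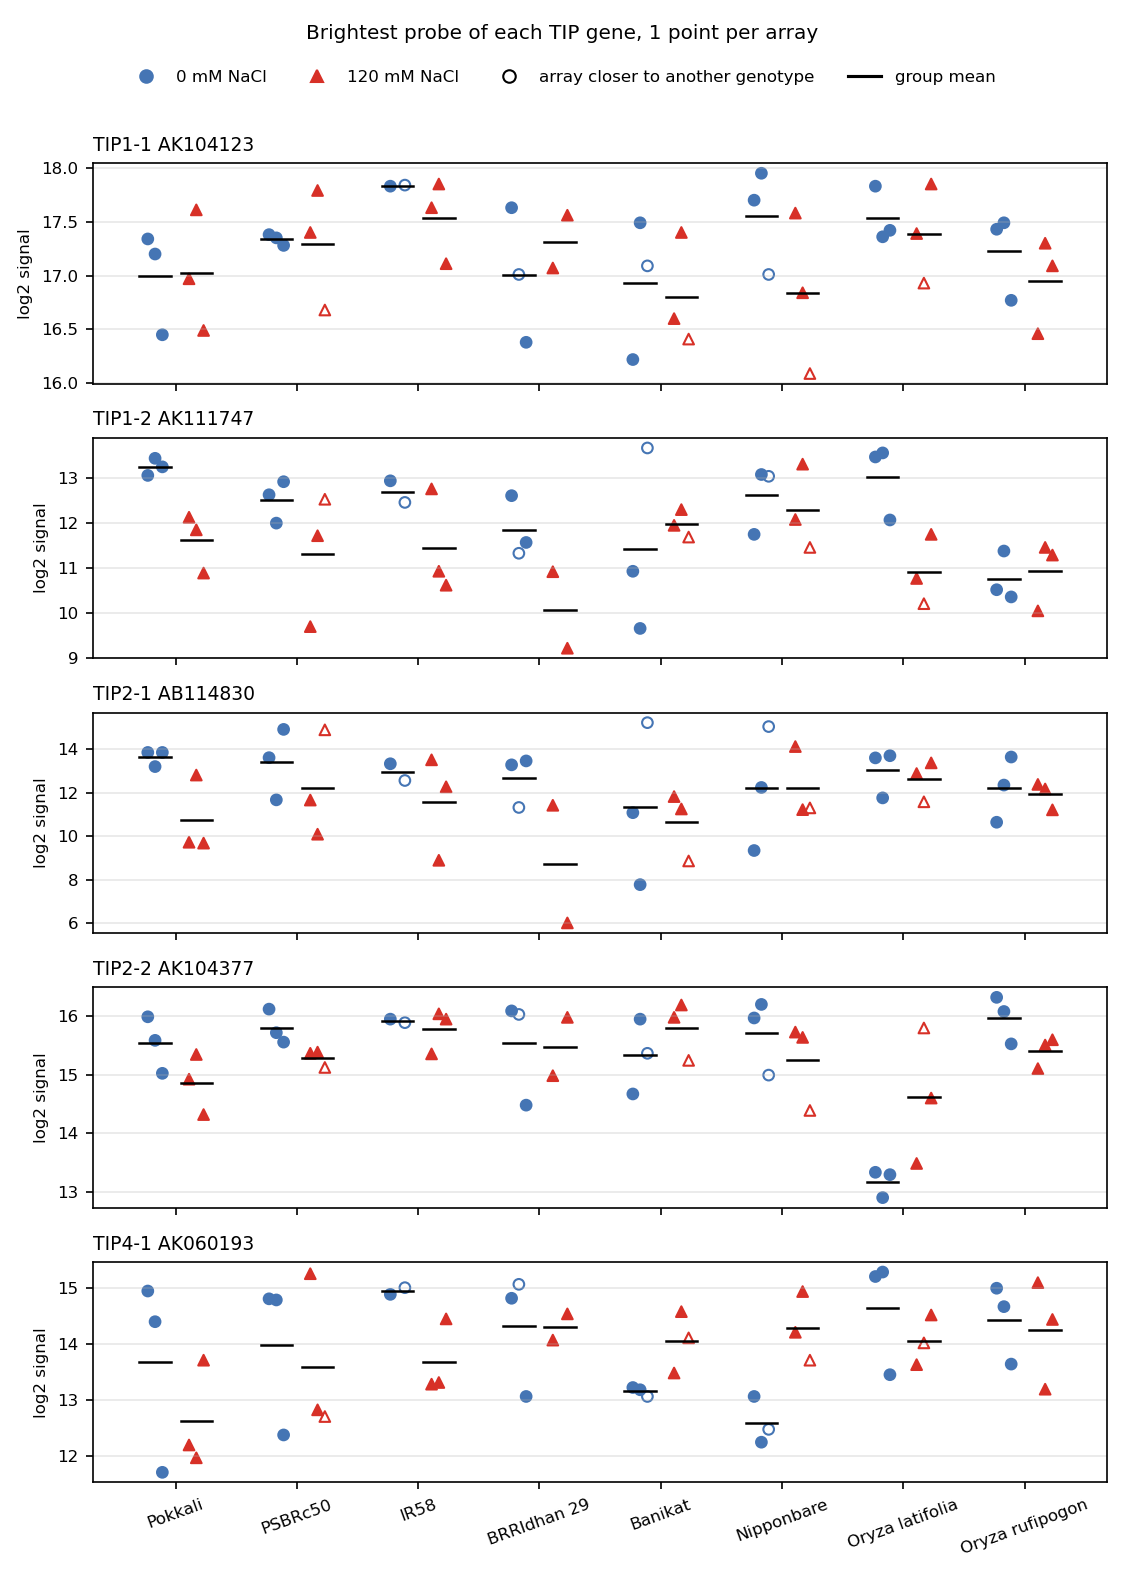
Log2 signal of the brightest probe of each TIP gene on every array, by genotype, with circles for 0 mM NaCl, triangles for 120 mM, open symbols for the 8 unlike arrays and black bars for group means. TIP2-2 in O. latifolia at 0 mM is the 1 group that stands apart from the next at either treatment, with 12.91 to 13.34 against 14.48 or more on every other array at 0 mM.

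TIP1-2 showed the mean salt effect nearest to the threshold. Its brightest probe, AK111747, is annotated to transcript Os01t0975900-01. In Pokkali its log2 signal was 13.06, 13.44 and 13.25 at 0 mM and 12.13, 11.85 and 10.89 at 120 mM. In BRRIdhan 29 it was 12.61, 11.33 and 11.57 at 0 mM and 10.92 and 9.22 at 120 mM. In O. latifolia it was 13.47, 13.56 and 12.07 at 0 mM and 10.77, 10.21 and 11.75 at 120 mM. In these 3 genotypes every array at 120 mM lay below every array at 0 mM. PSBRc50 had 12.63, 12 and 12.92 at 0 mM and 9.70, 11.72 and 12.53 at 120 mM. IR58 had 12.94 and 12.46 at 0 mM and 12.76, 10.93 and 10.62 at 120 mM. Both indica varieties had lower means under salt, with 1 salt array each inside the range of the controls. In the remaining 3 genotypes the treatments overlapped. Banikat had 10.93, 9.66 and 13.67 at 0 mM and 11.95, 12.30 and 11.69 at 120 mM. Nipponbare had 11.75, 13.08 and 13.04 at 0 mM and 12.08, 13.31 and 11.46 at 120 mM. O. rufipogon had 10.52, 11.38 and 10.36 at 0 mM and 10.05, 11.46 and 11.29 at 120 mM. Its mean of 10.76 was the lowest at 0 mM with all arrays, and without the unlike array Banikat was lower, at 10.29.

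For AK111747 the mean salt effect over the 8 genotypes was −0.95 (SE 0.27, 95% interval −1.51 to −0.39), lower in 6 of 8 genotypes, and missed the threshold with an adjusted p of 0.0624 by limma. Within slides, where the 2 treatments share hybridization and scan, the difference was below 0 on 9 of 12 slides (−2.35 to 1.44, median −1.45). It was below 0 in all 6 scan days (−1.70 to −0.10). Both counts include the unlike arrays. All arrays of slide 9 (−1.78) were unlike, as were some of slides 3 (−1.37), 5 (−1.52) and 11 (−1.63). The call depended on single arrays and on the scaling. For the mean salt effect 1.94% of all probes were called with 46 arrays. This share was 1.56% to 5.77% in the 6 fits named next that leave out 1 array. It was 2.81% with 75th-percentile scaling. The adjusted p was between 0.0158 and 0.0445 when 1 of 6 arrays was left out (PSBRc50 120 mM replicate 3, IR58 120 mM replicate 1, Banikat 0 mM replicate 2, Nipponbare 0 mM replicate 1, Nipponbare 120 mM replicate 2 or O. latifolia 120 mM replicate 3), and it was 0.0448 with arrays scaled to their 75th percentile, which moved the median effect of all probes from −0.01 to 0.11. Without the 8 unlike arrays the effect was −0.80 (SE 0.26) with an adjusted p of 0.116.

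The other TIP1-2 probes had smaller mean effects, −0.60 (SE 0.35, adjusted p = 0.374) for AB114829 and −0.33 (SE 0.32, adjusted p = 0.635) for AK111768, which is annotated to a second transcript, Os01t0975900-02. Both were lower under salt in 5 of 8 genotypes. These means include O. latifolia, where neither probe was well above background at 0 mM. Without O. latifolia the effects were −0.90 for AB114829 and −0.50 for AK111768, against −0.78 for AK111747, so the order of AB114829 and AK111747 turned. Over the 14 group means without O. latifolia, AB114829 followed AK111747 with r = 0.904 and AK111768 with r = 0.803. AK111747 and AK111768 were less alike, with r = 0.556. With O. latifolia included, the r of AK111747 was 0.248 with AB114829 and 0.169 with AK111768. These correlations are over groups that share slides and arrays.

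TIP2-1 had the largest mean salt effects of the 5 genes and also the widest spread between seedlings. AB114830 and AK064728 are annotated to the same transcript, Os02t0658100-01, and their values went together over the 46 arrays (r = 0.996), so they are near to 1 measurement. In Pokkali AB114830 had 13.85, 13.20 and 13.85 at 0 mM and 9.72, 12.81 and 9.68 at 120 mM, with no overlap. BRRIdhan 29 had 13.28, 11.32 and 13.46 at 0 mM and 11.42 and 6.01 at 120 mM, where the last is the lowest value of the probe and the first overlaps with the unlike array of the controls. In Banikat it had 11.08, 7.77 and 15.22 at 0 mM, a range that holds both a low and the highest value of all arrays, and 11.82, 11.25 and 8.86 at 120 mM. The array at 15.22 is an unlike one, as are those at 15.04 in Nipponbare and 14.89 in PSBRc50 below, so the 2 highest TIP2-1 values come from arrays that resemble another genotype. PSBRc50 had 13.61, 11.67 and 14.91 at 0 mM and 11.66, 10.09 and 14.89 at 120 mM. IR58 had 13.33 and 12.56 at 0 mM and 13.51, 8.89 and 12.27 at 120 mM. Nipponbare had 9.34, 12.24 and 15.04 at 0 mM and 14.12, 11.22 and 11.30 at 120 mM. The treatments overlapped in these 3 genotypes, in PSBRc50 only through the unlike array at 14.89. O. latifolia had 11.76 to 13.70 at 0 mM and 11.58 to 13.37 at 120 mM, and O. rufipogon had 10.64 to 13.64 at 0 mM and 11.21 to 12.38 at 120 mM.

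The mean salt effect of TIP2-1 was −1.35 (SE 0.57, 95% interval −2.51 to −0.20) for AB114830 and −1.33 (SE 0.57) for AK064728, each lower in 7 of 8 genotypes, with adjusted p of 0.192 and 0.206 by limma. Within slides the difference of AB114830 ran from −7.46 to 2.76, below 0 on 9 of 12 slides. All arrays of slide 9 (−5.05) were unlike, as were some of slides 3 (−2.09), 5 (−3.67) and 11 (−0.18). The genotypes did not pass the F test at either treatment (adjusted p = 0.892 at 0 mM and 0.495 at 120 mM). At 0 mM the group means ran from 13.63 ± 0.38 (SD, n = 3) in Pokkali down to 11.35 ± 3.73 (SD, n = 3) in Banikat. The neighbours in this order overlapped throughout, as they did at 120 mM, where O. latifolia (12.61 ± 0.92) was highest and BRRIdhan 29 (8.71 ± 3.83, n = 2) lowest. Without the 8 unlike arrays the effect was −1.0 (SE 0.54, adjusted p = 0.406) for AB114830 and −0.95 (SE 0.53, adjusted p = 0.438) for AK064728.

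**Figure D2:**
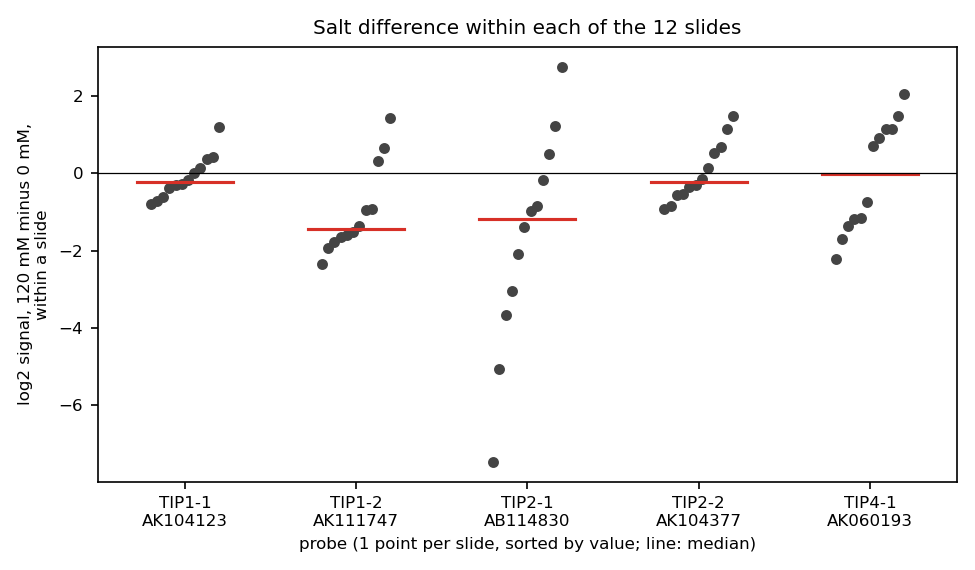
Log2 signal at 120 mM minus 0 mM within each of the 12 slides, for the brightest probe of each TIP gene. Each point is the mean difference over the genotypes of a slide with both treatments there, and the red line is the median over slides. TIP1-2 and TIP2-1 lie below 0 on 9 slides each, and TIP2-1 spreads from −7.46 to 2.76. All arrays are used as labelled, and slide 9 holds only unlike arrays.

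TIP1-1 was well above background on every array, and its 4 bright probes had salt effects close to 0. AK104123 had group means between 16.93 ± 0.65 (SD, n = 3) in Banikat and 17.84 ± 0.01 (SD, n = 2) in IR58 at 0 mM. At 120 mM they lay between 16.81 ± 0.53 in Banikat and 17.53 ± 0.38 in IR58 (both n = 3), and every genotype overlapped with its neighbour in the order of levels at both treatments. Between these ends at 0 mM stood Nipponbare (17.55 ± 0.49), O. latifolia (17.54 ± 0.26), PSBRc50 (17.33 ± 0.05), O. rufipogon (17.23 ± 0.40), BRRIdhan 29 (17 ± 0.63) and Pokkali (16.99 ± 0.48). The mean salt effect of AK104123 was −0.16 (SE 0.15, 95% interval −0.47 to 0.15, adjusted p = 0.631). AK060994, AK059438 and AK058322 had −0.20, −0.21 and −0.28, none with an adjusted p under 0.306.

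2 further TIP1-1 probes, D25534 and AK068986, are annotated to transcript Os03t0146100-01 and were less like the bright probes than each other. They went together over the 46 arrays (r = 0.958), and their r with AK104123 was 0.521 and 0.541. With the bright probe AK058322 it was 0.69 and 0.728. The r of AK058322 with the other bright probes was 0.785 to 0.821. Their mean salt effects were −0.52 (SE 0.18, 95% interval −0.88 to −0.15) and −0.53 (SE 0.18), lower in 6 of 8 genotypes, with adjusted p of 0.113 and 0.116. In IR58, D25534 had 14.57 and 14.31 at 0 mM and 13.32, 13.29 and 13.24 at 120 mM. In PSBRc50 it had 14.28, 14.05 and 13.87 at 0 mM and 12.63, 13.28 and 13.68 at 120 mM. The treatments did not overlap in these 2 genotypes. In Banikat the replicates differed in order, with 11.84, 13.26 and 13.83 at 0 mM and 13.84, 14.47 and 12.66 at 120 mM. The last array of each was unlike, and without both the values at 120 mM lay above those at 0 mM. Without the 8 unlike arrays the mean effects were −0.36 (adjusted p = 0.35) and −0.37 (adjusted p = 0.33).

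The bright probes of TIP2-2 differed between genotypes only in fits with O. latifolia, and the gene had no called salt effect. Its 7 bright probes fell into 2 sets in O. latifolia, and the sets follow the annotated transcript. AK099015 and AK104270 are annotated to Os06t0336200-01. AK104377, AK100193, AK099141, AK104464 and AK099616 are annotated to Os06t0336200-02. At 0 mM AK099015 had 8.58, 9.02 and 8.49 in O. latifolia and 14.26 to 16.10 on the arrays of the other 7 genotypes. AK104270 had 8.47, 6.83 and 8.52 in O. latifolia, the second not well above background. AK104377 had 13.34, 12.91 and 13.30 there and 14.48 to 16.31 elsewhere. For AK099015 the O. latifolia mean minus the mean of the other 7 genotypes was −6.81, and AK104270 is given no difference, since 1 of its 3 arrays was not well above background. For the 5 probes of the other transcript it was −2.62 to −2.37. The O. latifolia arrays overlapped with those of no other genotype for any of these 7 probes at 0 mM.

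The F test over the 8 genotypes at 0 mM called all 7 bright TIP2-2 probes (adjusted p from 2.73e-07 for AK104270 to 0.000371 for AK100193). It called 61.9% of all probes. Without O. latifolia none of the 7 was called, where 7.12% of all probes were. Under salt 1 array stood apart. AK099015 had 8.79, 15.75 and 8.81 in O. latifolia at 120 mM, and AK104270 had 8.73, 15.73 and 8.81. The high value is replicate 2, an unlike array. Over all 3 arrays the salt effect of AK104270 in O. latifolia was 3.15 with an adjusted p of 0.0517, and without the 8 unlike arrays it was 0.83 (adjusted p = 0.576). The mean salt effects of the 7 bright probes were between −0.07 and 0.20, and the widest 95% interval was −0.50 to 0.91. AK073531, assigned to a transcript assembly and not to a RAP transcript, was dim in most groups. Its group means were 2.48 to 7.89 at 0 mM and 3.52 to 9.28 at 120 mM, the highest in Banikat at both treatments. Without the unlike arrays Banikat had 8.15 and 10.13 at 0 mM and 10.89 and 11.14 at 120 mM. The highest values elsewhere were then 6.30 at 0 mM, in O. rufipogon, and 6.69 at 120 mM, in IR58. The r of AK073531 with the 7 bright probes over the 14 group means was 0.127 to 0.22.

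**Figure D3:**
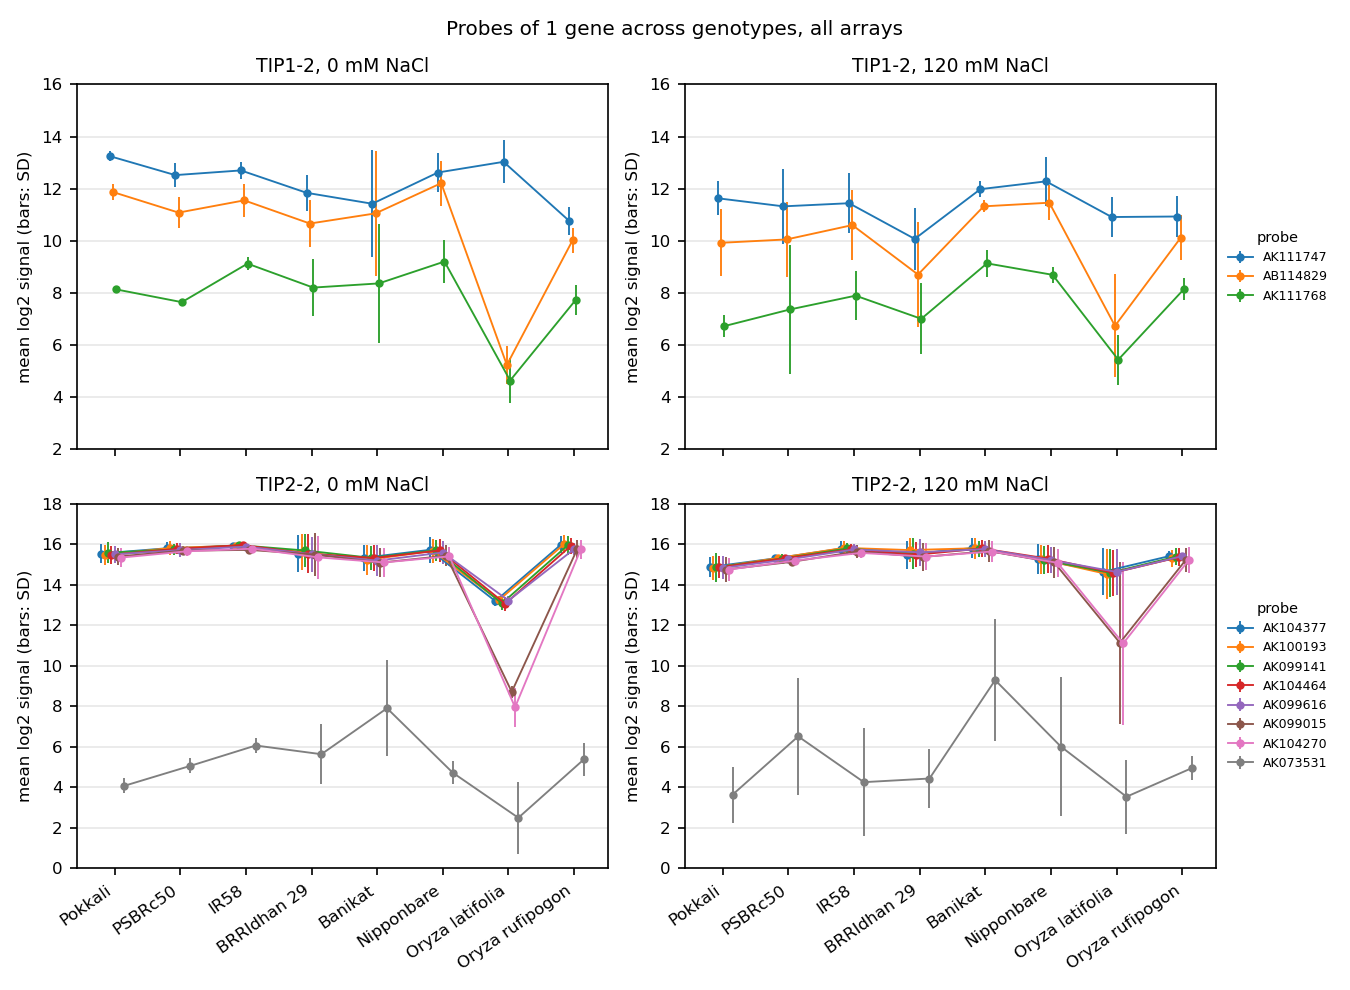
Mean log2 signal of each probe of TIP1-2 (upper row) and TIP2-2 (lower row) by genotype, at 0 mM (left) and 120 mM (right), all arrays. Bars are SD over 2 or 3 arrays. In O. latifolia at 0 mM the TIP2-2 probes AK099015 and AK104270 fall to 8.70 and 7.94 and TIP1-2 probe AB114829 to 5.23 (AK104270 well above background on 2 of 3 arrays, AB114829 on none), while TIP1-2 probe AK111747 stays at 13.03. For AK099015 and AK104270 the O. latifolia bars at 120 mM are 4.01 and 4.02 with all arrays, and the SD is 0.01 and 0.05 without replicate 2.

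The probes of TIP1-2 also parted in O. latifolia, but not by annotated transcript, since AB114829 shares Os01t0975900-01 with AK111747. At 0 mM AB114829 had 5.03, 4.62 and 6.05 and AK111768 had 4.47, 3.85 and 5.58, none well above background, while AK111747 had 12.07 to 13.56, inside the range of the other genotypes. Against the higher of the measured signal and the lowest signal well above background on the same array, AB114829 was at least 26.8-fold higher in O. rufipogon and at least 123-fold higher in Nipponbare. AK111768 was at least 5.82-fold higher in PSBRc50 and at least 17.2-fold higher in Nipponbare. For both probes the other 5 genotypes lay between these bounds. Unlike arrays moved some bounds, and without them Banikat was lowest, at least 21.3-fold higher for AB114829 and at least 4.05-fold for AK111768. The F test at 0 mM called both probes (adjusted p = 6.3e-06 and 0.00146), where 61.9% of all probes were called. Neither was called without O. latifolia. On the O. latifolia array at 120 mM that is unlike, AB114829 had 8.96 and was well above background, against 6.04 and 5.19 on the other 2, which were not.

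TIP4-1 had its largest single-genotype difference in Nipponbare. AK060193 had 13.06, 12.24 and 12.47 at 0 mM and 14.21, 14.94 and 13.71 at 120 mM in Nipponbare, with no overlap. This salt effect of 1.69 had an unadjusted p of 0.0312 and an adjusted p of 1 by limma. In Banikat it had 13.22, 13.18 and 13.06 at 0 mM and 13.48, 14.58 and 14.11 at 120 mM, again with no overlap. In Pokkali it had 14.95, 14.40 and 11.70 at 0 mM and 12.19, 11.96 and 13.71 at 120 mM, with overlap. IR58 had 14.89 and 15.01 at 0 mM and 13.28, 13.31 and 14.45 at 120 mM. The japonica cultivars were thus higher and IR58 lower under salt on every array. At 0 mM the order of means ran from IR58 (14.95 ± 0.09, n = 2) over O. latifolia (14.65 ± 1.04), O. rufipogon (14.44 ± 0.71), BRRIdhan 29 (14.32 ± 1.10), PSBRc50 (13.99 ± 1.40), Pokkali (13.69 ± 1.74) and Banikat (13.15 ± 0.08) to Nipponbare (12.59 ± 0.42), with overlap between all neighbours. Under salt the means lay between 12.62 and 14.30. The mean salt effect was −0.12 (SE 0.27, 95% interval −0.68 to 0.44). The dim probe AK072531 had −0.16 (SE 0.45).

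Of the 21 probes, none was called for the mean salt effect, where 1.94% of all probes were (826 of 42477). The unadjusted p was under 0.05 for 5 of the 21 (AK111747, AB114830, AK064728, AK068986 and D25534) and for 18.1% of all probes. The median TIP effect was −0.16 and 17 of 21 were below 0. The median of all probes was −0.01 and 51.3% were below 0. Probes of 1 gene are not independent, so these counts describe 5 genes.

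**Figure D4:**
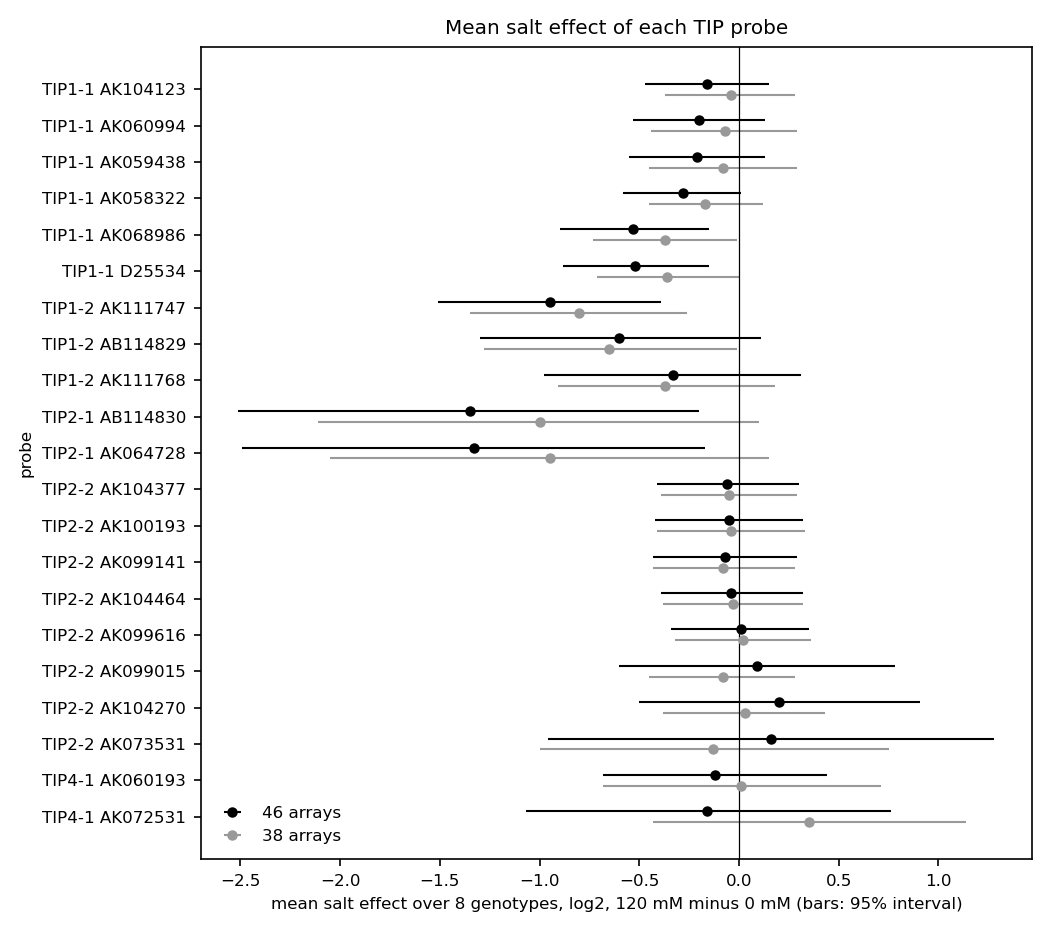
Mean salt effect over the 8 genotypes (log2, 120 mM minus 0 mM) of each TIP probe with its 95% interval, from all 46 arrays (black) and from the 38 arrays without the unlike ones (grey). The intervals of TIP2-1, of TIP1-2 probe AK111747 and of TIP1-1 probes D25534 and AK068986 end below 0 with 46 arrays, yet none passes the adjustment over all probes.

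In single genotypes none of the 168 pairs of probe and genotype was called. The unadjusted p was under 0.05 for 16 pairs and the lowest adjusted p was 0.0517. Of these, 8 pairs were in O. latifolia, where 22.3% of all probes had an unadjusted p under 0.05. In the other genotypes this share was 2.43% to 8.39%. Over all probes, 0.00235% were called in Pokkali and in IR58, 0% in PSBRc50 and Banikat, 0.00471% in BRRIdhan 29, 0.0118% in Nipponbare, 3.98% in O. latifolia and 0.101% in O. rufipogon. Below 0 were 21 of 21 TIP probes in IR58 (50.1% of all probes), 20 in PSBRc50 (55.3%), 18 in Pokkali (55.5%) and 17 in O. rufipogon (49.3%). The count was 15 in BRRIdhan 29 (48.9%), 14 in Nipponbare (52.5%), 10 in O. latifolia (56%) and 5 in Banikat (51.8%). The F test of the difference between the genotypes' salt effects called no TIP probe (lowest adjusted p = 0.442, 2 with an unadjusted p under 0.05). Of all probes, 0.6% were called by it and 11.3% had an unadjusted p under 0.05. The effects of the 4 tolerant or moderately tolerant genotypes did not differ from those of the 4 susceptible ones for any TIP probe, with no unadjusted p under 0.05 among the 21, and 0% of all probes were called. The difference for AK111747 was 0.13 (SE 0.65) and for AB114830 −0.38 (SE 0.90), tolerant minus susceptible.

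Genotypes differed at 0 mM for 9 of the 21 TIP probes, those of TIP1-2 and TIP2-2 given above, where 61.9% of all probes were called. At 120 mM 5 of 21 were called (AB114829, AK111768, AK073531, AK099015 and AK104270), where 40.2% of all probes were. Without O. latifolia no TIP probe was called at either treatment (1 of 21 with an unadjusted p under 0.05 at each), and the background was 7.12% at 0 mM and 7.02% at 120 mM. TIP1-1, TIP2-1 and TIP4-1 had no call in any of these tests of 46 arrays.

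**Figure D5:**
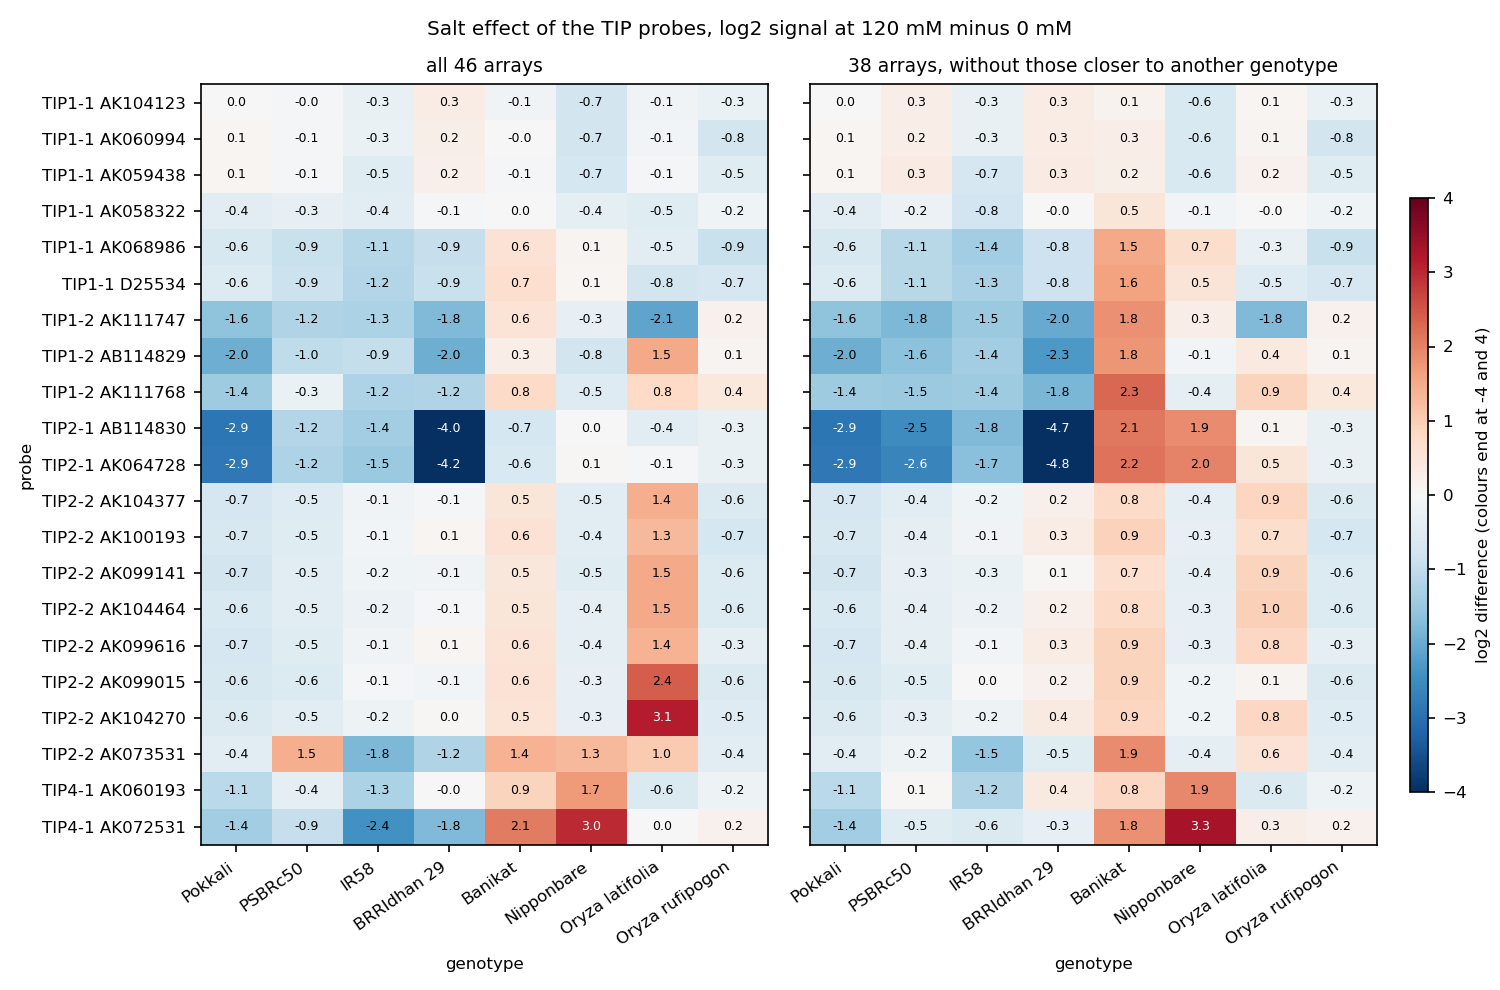
Salt effect of each TIP probe (rows) in each genotype (columns) as log2 signal at 120 mM minus 0 mM, with all 46 arrays (left) and with 38 arrays (right). Blue is lower and red higher under salt, and colours end at −4 and 4. With 38 arrays the Banikat column is above 0 for 21 of 21 probes, while 52.7% of all probes are below 0 there. TIP1-2 and TIP2-1 are then below 0 in all 4 indica genotypes.

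Without the 8 unlike arrays the salt effects of TIP1-2 and TIP2-1 were of either sign, and of their 5 probes only AK111768 passed the test of a difference between genotypes (the 2 TIP2-1 probes had adjusted p of 0.211 and 0.165). AK111747 had −1.62 in Pokkali, −1.81 in PSBRc50, −1.50 in IR58, −2.02 in BRRIdhan 29 and −1.77 in O. latifolia, with no overlap between treatments in any of the 5. It had 1.83 in Banikat, also with no overlap, 0.28 in Nipponbare and 0.17 in O. rufipogon. AB114830 of TIP2-1 had −2.89 in Pokkali, −2.52 in PSBRc50, −1.77 in IR58 and −4.66 in BRRIdhan 29, but 2.11 in Banikat and 1.88 in Nipponbare. The treatments then did not overlap for AB114830 in Pokkali, PSBRc50, BRRIdhan 29 and Banikat. D25534 of TIP1-1 had −1.29 to −0.56 in the 4 indica genotypes and 1.60 in Banikat. AK060193 of TIP4-1 had 1.92 in Nipponbare and 0.83 in Banikat. In Banikat the median over the 21 TIP probes was 0.90, against −0.03 over all probes. Groups then hold 1 to 3 arrays, and Banikat and Nipponbare have 2 at each treatment.

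In these 38 arrays the F test of the difference between genotypes called 1 of 21 TIP probes, AK111768 of TIP1-2 (adjusted p = 0.0499), where 13.6% of all probes were called. AK068986, AK111747 and D25534 were next in order of adjusted p. Without O. latifolia as well, AK111768 (0.0392), D25534 (0.0479) and AK068986 (0.0494) were called, with a background of 14.5%. No mean salt effect was called (3 of 21 with an unadjusted p under 0.05), where 2.38% of all probes were. Of the 168 pairs none was called, 24 had an unadjusted p under 0.05 and the lowest adjusted p was 0.055 (D25534 in Banikat). Over all probes, 0.254% were called in Pokkali, 4.65% in PSBRc50, 0.552% in IR58, 1.27% in BRRIdhan 29, 8.04% in Banikat, 1.07% in Nipponbare, 3.49% in O. latifolia and 2.25% in O. rufipogon. Genotypes differed for 12 of 21 probes at 0 mM (all 8 of TIP2-2, all 3 of TIP1-2 and AK072531 of TIP4-1) and for 10 of 21 at 120 mM (all 8 of TIP2-2, AB114829 and AK111768), with backgrounds of 74.4% and 68.6%. When O. latifolia was left out too, 2 of 21 were called at each treatment (AK111747 and AK073531 at 0 mM, AK111768 and AK073531 at 120 mM), with backgrounds of 31.7% and 26.8%.

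Loci listed as root and as shoot markers were followed beside these results, 5 of each, by the brightest probe of each locus. The mean log2 level of the root list ranged from 7.58 to 11.25 at 0 mM and from 7.86 to 10.03 at 120 mM, and that of the shoot list from 16.31 to 17.91 and from 16.18 to 17.97. The 5 shoot loci were well above background on all 46 arrays, as were 3 of the root loci, while Os02g0620500 was so on 40 and Os02g0112100 on 12. All 5 root loci were lower under salt in the mean over genotypes (median −0.45, lowest adjusted p = 0.175), and 4 of 5 shoot loci were (median −0.05). The mean of the root list was lower at 120 mM in 7 of 8 genotypes and higher by 0.30 in Banikat. The mean of the shoot list differed by −0.77 in O. rufipogon to 0.52 in Banikat. Without the 8 unlike arrays the difference of the root list was −0.89 in Pokkali, −0.58 in PSBRc50, −1.21 in IR58, −0.99 in BRRIdhan 29, 0.67 in Banikat, −0.39 in Nipponbare, −0.14 in O. latifolia and −0.24 in O. rufipogon. In these 38 arrays the root list had the same sign as every TIP2-1 and TIP1-2 probe in the 4 indica genotypes and in Banikat. The signs differed in Nipponbare for TIP2-1 (1.88 and 1.99) and AK111747 (0.28), in O. rufipogon for the TIP1-2 probes (0.10 to 0.41), and in O. latifolia for TIP2-1 (0.10 and 0.49), AB114829 (0.38) and AK111768 (0.89). With all 46 arrays the signs differed in Banikat for TIP2-1 (−0.71 and −0.62). They were then the same in Nipponbare for AK111747 (−0.34) and in O. latifolia for TIP2-1 (−0.41 and −0.07). The part of the root list in those effects was not tested.

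Other aquaporins were followed as counts. Of 5 other TIP loci with 7 probes, none had a called mean salt effect, and the effect of the brightest probe ran from −0.89 to 1.60 with a median of 0.05 (lowest adjusted p = 0.106). Of 11 loci of plasma membrane aquaporins (PIPs) with 31 probes, 1 probe was called (1.94% of all probes were) and 24 were below 0. Over the brightest probe of each PIP locus the median effect was −0.28, and 9 of 11 were below 0. At 0 mM the F test called 12 of 31 PIP probes, and at 120 mM 5 of 31, where 61.9% and 40.2% of all probes were called.

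The probes of other loci whose 14 group means without O. latifolia were most like those of the brightest TIP probes are given as a description, over groups that share slides. For TIP4-1 (AK060193) they were Os03g0792400, Os09g0128400 (r = 0.945 each) and Os08g0517500 (r = 0.944). For TIP2-1 (AB114830) they were Os01g0726100 (r = 0.922), Os07g0639400 (r = 0.917) and Os06g0179400 (r = 0.89). For TIP1-2 (AK111747) they were Os02g0203700 (r = 0.916), Os05g0573500 (r = 0.905) and Os03g0577000 (r = 0.892). The nearest locus was less close for TIP1-1 (AK104123, Os07g0598000, r = 0.84, then Os12g0135500 and Os01g0678700, r = 0.835 each) and for TIP2-2 (AK104377, Os06g0542700, r = 0.839, then Os01g0754100, r = 0.838, and Os12g0244200, r = 0.833). With O. latifolia included, over 16 groups, these r ranged from −0.661 to 0.943. The 3 loci nearest to TIP2-1 had mean salt effects of −1.51, −1.01 and −0.86.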

How the data were processed

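RNA of 46 whole seedlings (8 genotypes, 0 and 120 mM NaCl) was measured on 1-colour Agilent arrays. The authors deposited each array's signal intensity per spot as written by Agilent Feature Extraction 10.7.3.1 (protocol GE1_107_Sep09, array annotation IRGSP5, per the file headers), after background subtraction, with no step between arrays. A second deposited file holds log2 values for 42475 probes. The methods name quantile normalization. Its differences between arrays followed those used here (lowest r 0.999, slopes 0.994 to 1.00), with column medians of −0.17 to 0.51, so each probe appears to be centred and only differences were used.

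Here the processed signals of 43734 non-control spots were brought to log2 and quantile-normalized. Outlier spots (0.0562% of probe values) were left out and spots of 1 probe averaged (42477 probes, 29923 loci). Detection used the scanner's well-above-background flag, over 0.5 or more of a probe's spots where it had several, and 20914 to 36693 probes passed on an array. Precision is limited by how many arrays there are. Groups were compared with limma 3.58.1 in R 4.3.3 on 16 group means with 30 residual degrees of freedom. The fit was tested on simulated data: of 200 probes changed in all genotypes among 42477, 50% of those changed by 1 on the log2 scale and 90% of those changed by 2 were called, with 1 false call. The simulated noise was normal and independent between arrays, so deviations that real arrays share were not covered.

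Every probe of the 5 loci is reported. Other TIP and PIP loci are given as counts, and for each of the 5 genes the 3 probes of other loci most like its brightest probe are named. The members, lists and tests were chosen with earlier results of these data known. Of 22 pairs of arrays with the same genotype and replicate number, 8 deviated together with r over 0.1 (−0.0337 to 0.463), and 21 shared a slide. The labels do not say that a number marks a batch, and not every pair passed 0.1, so the fit has no block for the number. Alternatives were 75th-percentile scaling, normexp background correction (offset 50), the deposited table, leaving out dim probes, a block for replicate number, one for slide and one for scan day, keeping outlier spots, and leaving out replicates, single arrays, wild species or the unlike arrays. Leaving out O. latifolia together with the unlike arrays was chosen after seeing the data. Probe sequences were not used here.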

Additional observations from a re-analysis of the deposited data

Results flagged for a closer look

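The salt effect of 3 TIP probes differed between genotypes by limma's F test, but in fits that leave out arrays and not in the fit of all 46 (lowest adjusted p = 0.442). TIP1-2 probe AK111768 had an adjusted p of 0.0499 without the 8 arrays that resemble another genotype, and of 0.0392 without O. latifolia as well. In the second of these fits TIP1-1 probes AK068986 (0.0494) and D25534 (0.0479) also passed. In the 38 arrays AK111768 had salt effects of −1.42 in Pokkali, −1.48 in PSBRc50, −1.41 in IR58, −1.84 in BRRIdhan 29 and 2.29 in Banikat, where a group held 1 to 3 arrays. All 3 values lie close to the threshold, and the share of all probes called in the same fits was 13.6% and 14.5%.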

How the results depend on the processing

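Over 61 alternative settings, the mean salt effects of all TIP1-1, TIP1-2 and TIP2-1 probes kept their sign. No TIP probe was called for the tolerance contrast in any setting. For the mean salt effect, 1 probe (AK111747 of TIP1-2) was called with 75th-percentile scaling (2.81% of all probes), and 0 to 1 when single arrays were left out. Where it was called without a single array, 1.56% to 5.77% of all probes were, against 1.94% with 46 arrays. In single genotypes the count of pairs was 2 with 75th-percentile scaling, 3 with normexp, 5 with the replicate block, 3 with the scan-day block, 0 to 2 without 1 replicate number and 0 to 7 without single arrays. These pairs were all in O. latifolia, in fits that kept its unlike array (120 mM replicate 2). Without the unlike arrays the O. latifolia effect of AK104270 went from 3.15 to 0.83. The share of all probes called in single genotypes was not taken in these settings. The difference between genotypes counted 0 to 3 without 1 replicate number (3 without replicate 3, TIP1-1 and TIP4-1), 1 without the unlike arrays and 3 without O. latifolia and these. At 0 mM the count of 9 (61.9% of all probes called) became 14 with 75th-percentile scaling (63.8%), 7 to 15 without 1 replicate number (21.6% to 61.9%), 0 without O. latifolia (7.12%) or both wild species (4.96%) and 2 without O. latifolia and the unlike arrays (31.7%). At 120 mM the count of 5 (40.2%) became 0 to 3 without 1 replicate number (0.353% to 43.2%), 0 to 10 without single arrays, 0 without O. latifolia (7.02%) or both wild species (4.45%), 10 without the unlike arrays (68.6%) and 2 without O. latifolia and these (26.8%). Of the single O. latifolia arrays at 120 mM, leaving out replicate 2 gave 10 (59.6%), replicate 1 gave 1 (11.6%) and replicate 3 gave 0 (11.9%). With the replicate block no TIP probe was called by limma for the mean salt effect (lowest adjusted p = 0.0619). None was called for the difference between genotypes either (0.237). Over all probes the test of that difference had 255 calls with 46 arrays. It had 350 with the replicate block and 3761 without replicate 3. Same-numbered arrays mostly shared a slide (21 of 22 pairs), and their deviations correlated over 0.1 in 8 pairs, among them all 3 of Banikat (0.193 to 0.463). Over all probes the mean salt effect had 826 calls, against 1368 with normexp, 1410 with the scan-day block, 0, 63 and 699 without replicates 1, 2 and 3, 226 without O. latifolia and 2 without both wild species.

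Near 0, 10 probes of TIP2-2 and TIP4-1 changed sign with no call. With normexp AK099141 was 0.05 and AK099616 −0.01, and with the slide block AK072531 was 0.03. Without O. latifolia AK099015, AK099616 and AK104270 were −0.25, −0.19 and −0.22, and without both wild species −0.19, −0.17 and −0.17. Without the unlike arrays AK060193, AK072531, AK073531 and AK099015 were 0.01, 0.35, −0.13 and −0.08. Without O. latifolia and these, AK060193, AK072531, AK073531, AK099015, AK099616 and AK104270 were 0.10, 0.36, −0.23, −0.11, −0.09 and −0.09. Leaving out replicates or single arrays gave −0.63 to 0.14 for AK060193, −0.49 to 0.26 for AK072531, −0.25 to 0.66 for AK073531, −0.23 to 0.34 for AK099015, −0.26 to 0.15 for AK099141, −0.11 to 0.17 for AK099616, −0.21 to 0.18 for AK100193, −0.22 to 0.50 for AK104270, −0.22 to 0.16 for AK104377 and −0.19 to 0.18 for AK104464. The cause was not tested.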
